A study of Mus musculus with 9 samples.

Results

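Metastases of 2 mouse tumour models were set against each other directly, across all genes and without the primary tumours. The comparison took 5 of the 9 RNA sequencing libraries of the series, chosen by their labels and not by any measured value: 3 libraries of pancreatic ductal adenocarcinoma (PDAC) metastases and 2 libraries of breast cancer (BC) lung metastases. All were made from tumour cells sorted for a fluorescent label, YFP in PDAC and GFP in BC. Every PDAC library carries the p48-Cre driver, the allele p53F/+ and the reporter ROSA-LSL-YFP. PDAC liver 1 and PDAC lung 1 carry SIRT6F/F as well, at an age of 25.67 weeks. PDAC liver 5 has no Sirt6 allele in its label and an age of 28.95 weeks. BC lung 4 and BC lung 6 are labelled 4T1-eGFP derived, at a time of 28 days. No treatment is given for any group, and the protocol calls both models orthotopic.

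The p48 gene, also known as Ptf1a, is active in pancreatic progenitors and acinar cells, so the p48-Cre driver and the Cre-dependent YFP reporter mark cells of pancreatic descent. All BC libraries derive from 1 cell line, 4T1, a mouse mammary carcinoma that spreads to the lung. The libraries of number 1 share a number, an age and a genotype and may come from 1 mouse, in which case the 3 PDAC libraries stand for 2 mice. Nothing in the labels says that BC lung 4 and BC lung 6 came from separate mice, so the spread between them may be partly technical. The organ is not matched: 2 of the 3 PDAC libraries grew in liver, whereas both BC libraries grew in lung, and in the pooled comparison the model and the organ cannot be told apart.

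PDAC arises from the exocrine pancreas and keeps features of duct or gastric epithelium, with keratins and mucins, while breast carcinoma lines such as 4T1 combine simple keratins with mesenchymal genes. Metastatic cells grow among blood, immune and organ cells of the host, whose RNA is marked by products such as haemoglobin, immunoglobulin, albumin or surfactant protein. Tumour cells also secrete cytokines and proteases that act on those host cells, among them the neutrophil growth factor G-CSF and the matrix metalloproteinases.

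Levels are given as RPKM, which divides the reads of a gene by its length and by a library total. Between 21300000 (PDAC lung 1) and 85100000 reads (BC lung 4) were estimated to lie on genes, and 9519 to 18706 genes were above 0. PDAC lung 1 (9519 genes) and BC lung 6 (10927) had the fewest. Haemoglobin genes took 38.9% of the summed RPKM in PDAC liver 1, 20.04% in PDAC liver 5 and 38.6% in PDAC lung 1, against 0.0235% in BC lung 4 and 0.107% in BC lung 6. Across 10835 genes the correlation of log2 values was 0.805 between the BC libraries and 0.733 between the PDAC liver libraries. PDAC liver 1 correlated at 0.667 with BC lung 4 and at 0.626 with PDAC lung 1, so the PDAC libraries were not closest to each other throughout. All share a protocol. Male-specific Eif2s3y read 15.4 and 11.1 RPKM in PDAC liver 1 and lung 1 and was listed at 0 in the other metastasis libraries, and Xist read 2.67 in PDAC liver 5, 0 in the number 1 libraries and at most 0.0652 in BC.

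The Sirt6 and p53 alleles of the genotypes were checked first. Sirt6 read 2.91 RPKM in PDAC liver 1, 2.23 in PDAC liver 5 and 0 in PDAC lung 1, against 4.96 in BC lung 4 and 0.208 in BC lung 6. Trp53 read 3.18, 7.20 and 0.639 in the PDAC libraries in that order, against 11.2 and 0.794 in BC. Groups overlapped for both genes, neither passed the test, and a value for a whole gene also counts reads outside a deleted part.

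Epithelial identity was unevenly present. Krt18, a keratin of simple epithelia, read 4064 RPKM in PDAC liver 1 but 124 in PDAC liver 5 and 42.7 in PDAC lung 1, against 2552 and 4066 in BC lung 4 and 6. Its partner Krt8 read 1476, 37.5 and 56.5 in PDAC, against 1238 and 1323. Among the PDAC libraries, therefore, PDAC liver 1 alone reached the keratin level of the BC libraries. The epithelial adhesion gene Epcam was detected in all 5, at 25.1, 20.1 and 24.3 RPKM in PDAC and 94.9 and 66.2 in BC. Of 21 simple and ductal epithelial markers, 15, 16 and 7 reached 1 RPKM in PDAC liver 1, liver 5 and lung 1, and 17 and 12 in BC. The duct regulator Pdx1 reached 6.30 RPKM in PDAC liver 1 and was under 0.1 in the other metastases. The mammary lineage list summed to 41.8, 1861 and 43.6 RPKM in PDAC and 130 and 133 in BC, and 0 of its 3 tested members were called. Ltf, lactoferrin, a milk protein that is also a neutrophil granule protein, made up 1854 RPKM of the sum in PDAC liver 5. Gata3, a regulator of the mammary lineage, read 2.94, 1.24 and 3.80 in PDAC against 40.9 and 26.0 in BC (adjusted p = 0.233, limma).

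The main test was limma on log2(RPKM + 1). Each difference below is the mean of the 3 PDAC libraries minus the mean of the 2 BC libraries on that scale, with its standard error (SE), and the added 1 makes the change of weakly expressed genes look smaller. Genes with an adjusted p under 0.05 (Benjamini-Hochberg, all genes tested) are termed called. Of 10835 genes tested, 159 were called higher in PDAC metastases (1.47%) and 29 higher in BC lung metastases (0.268%), 188 in all (1.74%). Counts of called list members below are to be read beside these shares. In none of the 188 did the PDAC and BC values overlap, while 3283 of all tested genes (30.3%) had groups that do not overlap. The median difference over all tested genes was -0.09. These counts rest on single libraries: without PDAC liver 5, limma called 1 gene higher (Alas2) and 0 lower (615 and 755 at an unadjusted p under 0.05), without PDAC lung 1 it called 81 and 18, without BC lung 4 325 and 16, without BC lung 6 162 and 9, and without PDAC liver 1 196 and 73. PDAC took 84.6% of the calls, 71.8% under quantile scaling (287 and 113 calls) and 75.4% after rescaling without the haemoglobin genes (49 and 16 calls), which moved the median over all genes to -0.42.

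**Figure D1:**
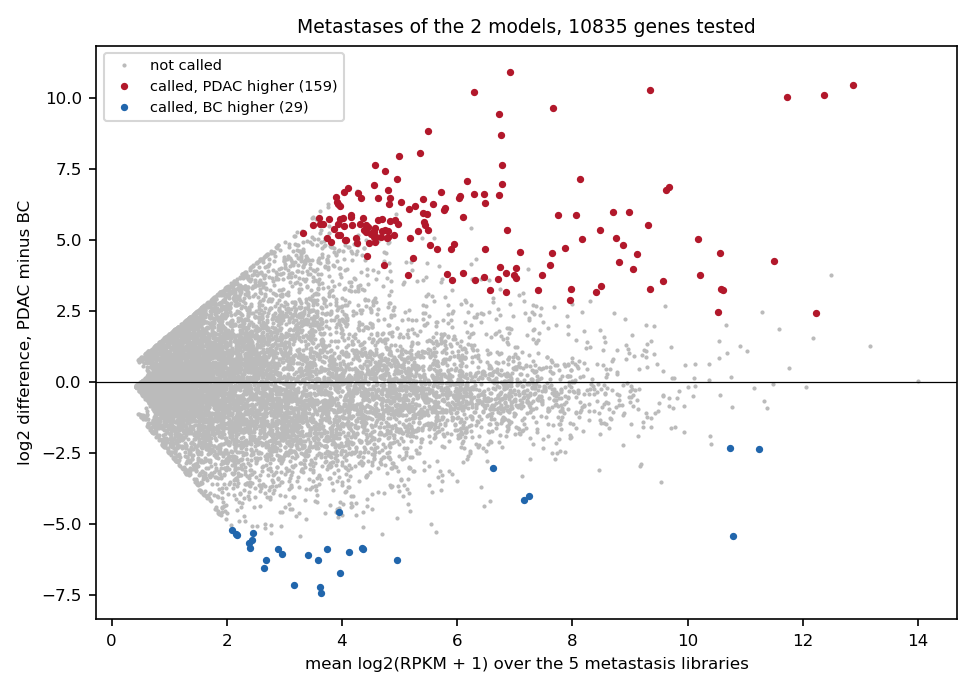
Log2 difference between PDAC and BC metastases (vertical axis, PDAC minus BC) against the mean log2(RPKM + 1) over the 5 metastasis libraries (horizontal axis), 1 point per tested gene. The largest difference, 10.93, is that of Alas2, and 159 called genes lie above 0 against 29 below.

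The genes that separated the models most were red cell genes. Alas2, which makes the first enzyme of haem synthesis in erythroid cells, read 2377 RPKM in PDAC liver 1, 2184 in PDAC liver 5 and 3006 in PDAC lung 1, against 0.439 and 0.143 in BC lung 4 and 6. The PDAC libraries were all far above both BC libraries, and the difference was 10.93 ± 0.62 (SE, adjusted p = 7.25e-06, limma). Beta-globin Hbb-b1 was the most abundant transcript of each PDAC metastasis library, at 160670, 111689 and 141700 RPKM, against 41.0 and 222 in BC. Its difference was 10.46 ± 0.63 (adjusted p = 7.25e-06, limma). The Hba-a1 and Hba-a2 pair, and Hbb-b1 and Hbb-b2, are near-identical copies whose reads cannot be assigned to 1 copy with certainty.

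Other red cell genes were called as well. Bpgm, which makes the red cell regulator of oxygen release, read 1527, 708 and 2831 RPKM in PDAC against 3.07 and 0.0835 in BC. Fech, the last enzyme of haem synthesis, read 909, 511 and 1649 against 19.5 and 0.0443. For both genes every PDAC library exceeded both BC libraries, which was a condition for naming them. In the erythroid list, 9 of 12 tested genes were called higher in PDAC and 0 lower, with a median difference of 9.73 against -0.09 over all genes. Slc4a1 (10.9, 14.1 and 42.8 RPKM against 0.00533 and 0) did not pass (adjusted p = 0.123, limma). The nuclear erythroid regulators Gata1 and Klf1 were at 0 in PDAC liver 1 and PDAC lung 1 and read 3.95 and 4.91 in PDAC liver 5. In bulk libraries, fewer cells of a type and less RNA per cell cannot be told apart.

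The promoter of Alas2 is shown because it led the list and holds the core motif of the GATA factors, which drive erythroid genes. The 250 bases before its annotated start, chrX:150547167-150547416 (plus strand, GRCm38.p6, from RefSeq), read as follows, with the match to AGATAA, on the opposite strand here, in capitals.
Alas2: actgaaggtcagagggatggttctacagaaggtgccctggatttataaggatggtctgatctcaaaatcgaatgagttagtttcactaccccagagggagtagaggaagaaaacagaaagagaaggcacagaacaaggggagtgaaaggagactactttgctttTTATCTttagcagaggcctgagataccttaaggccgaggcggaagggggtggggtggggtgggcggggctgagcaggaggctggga
The match starts 86 bases before the start. On either strand, AGATAA was present in 10 of 89 such windows of genes called higher in PDAC (11.2%), in 1 of 18 of those called higher in BC (5.56%) and in 425 of 7262 of all tested genes with a window (5.85%). Of 4 called erythroid list members with a window, 1 held a match, Alas2 itself. The other matches among the 10 include the neutrophil gene S100a9 and the T cell gene Cd3g. A match describes letters only and is not evidence of binding.

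**Figure D2:**
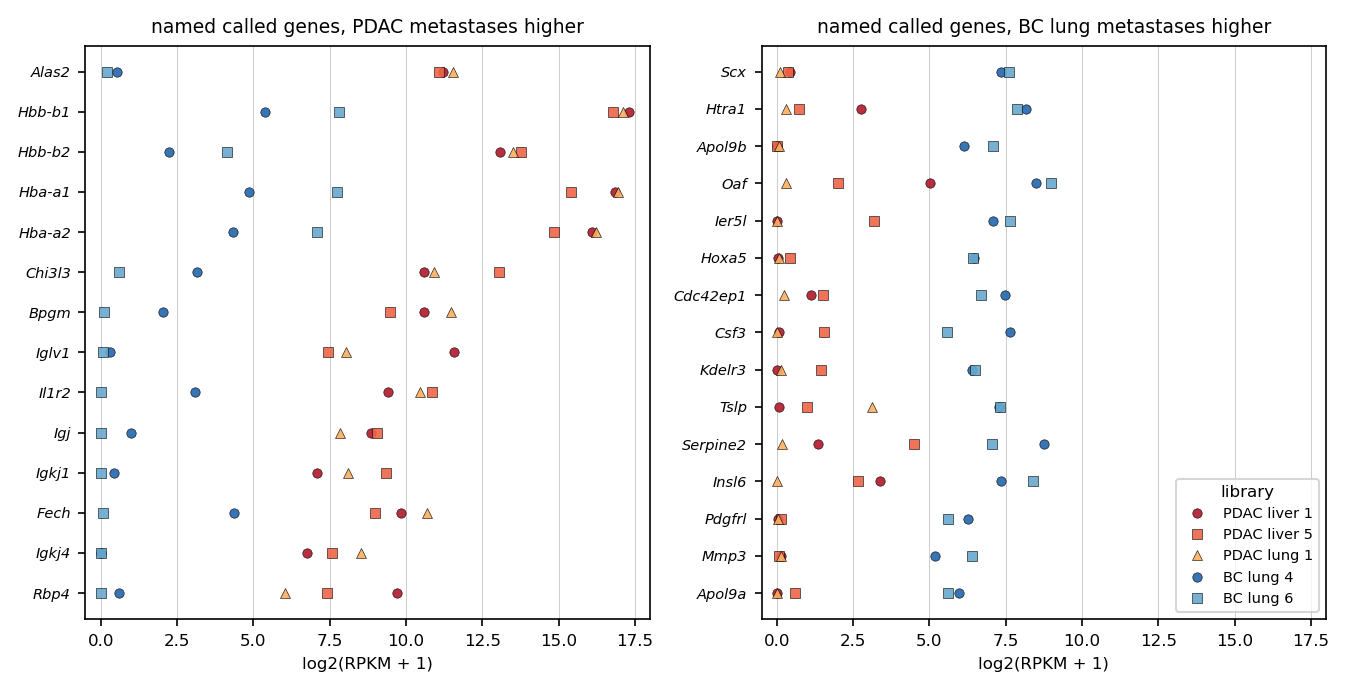
Level of named genes called higher in PDAC metastases (left) and of the 15 called higher in BC lung metastases (right) in each of the 5 libraries, as log2(RPKM + 1) on the horizontal axis, 1 symbol per library. In no gene do the 3 PDAC libraries overlap the 2 BC libraries, which was a condition for naming them, and Alas2 of the left panel has the largest difference.

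The called genes of the 2 myeloid lists, macrophage and neutrophil, were all higher in PDAC metastases. In the macrophage and monocyte list, 8 of 22 tested genes were called higher, 0 lower, and in 20 of 22 the PDAC libraries all exceeded the BC libraries (13.4% of all tested genes did so), with a median difference of 3.74. Cd14, the lipopolysaccharide co-receptor, read 3228, 6182 and 8171 RPKM in PDAC against 86.6 and 24.5 in BC. Its difference was 6.85 ± 0.66 (adjusted p = 0.000272, limma). Lysozyme Lyz2 read 4925, 4309 and 7064 against 261 and 200 (4.53 ± 0.51, adjusted p = 0.000862, limma). Tyrobp, an adaptor of activating myeloid receptors, read 1825, 4334 and 3174 against 103 and 38.8. All 3 genes were high in each PDAC library, whichever organ it came from.

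Resident macrophage genes varied among the PDAC libraries instead. Clec4f, a marker of liver Kupffer cells, read 597 RPKM in PDAC liver 1, 7.25 in PDAC liver 5 and 54.8 in PDAC lung 1, against 0.00527 and 0.00866 in BC. Marco, a scavenger receptor, read 590, 7.48 and 34.5 against 0.0262 and 0. Complement gene C1qb read 2222, 330 and 181 against 40.3 and 0.0197. Of the 3, C1qb passed the test (6.30 ± 1.38, adjusted p = 0.0431) and Clec4f and Marco did not (adjusted p = 0.0858 and 0.105, limma).

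Neutrophil genes peaked in PDAC liver 5. S100a8, a calcium-binding alarmin, read 101301 RPKM in PDAC liver 5 against 5035 and 8507 in PDAC liver 1 and lung 1 and 1503 and 939 in BC. Its partner S100a9 read 2564, 37977 and 8664 in PDAC against 588 and 411 (4.26 ± 0.87, adjusted p = 0.0323, limma). The granule genes Ngp and Camp read 25527 and 20982 in PDAC liver 5, but Camp read 3.85 and 1.43 in the other PDAC libraries, so the groups overlapped. The whole neutrophil list made up 22.8% of the summed RPKM of PDAC liver 5, 1.08% and 2.60% of PDAC liver 1 and lung 1, and 0.737% and 0.333% of BC lung 4 and 6. In that list 6 of 18 tested genes were called higher in PDAC (1.47% of all tested genes were) and 0 lower (median difference 2.97). The inflammatory cytokine gene Il1b read 742, 1129 and 1901 RPKM against 51.0 and 23.2 (5.04 ± 0.65, adjusted p = 0.00224, limma). Il1r2, the decoy receptor of interleukin 1, read 682, 1847 and 1414 against 7.48 and 0.0160. Chi3l3, a chitinase-like protein of alternatively activated myeloid cells, read 1560, 8449 and 1950 against 7.91 and 0.516.

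A ligand and its receptor lay on opposite sides of the comparison. Csf3 encodes G-CSF, the cytokine that drives neutrophil production, and read 197 and 47.2 RPKM in BC lung 4 and 6 against 0.0410, 1.89 and 0 in PDAC liver 1, liver 5 and lung 1. The difference was -6.08 ± 1.28 (adjusted p = 0.0364, limma). Its receptor gene Csf3r read 36.7, 121 and 89.8 in PDAC against 5.24 and 0.0103 in BC (4.90 ± 1.10, adjusted p = 0.0485, limma). The 4T1 line is known for releasing G-CSF. In the primary tumours Csf3 read 188 and 40.8 in BC and 0.0451 and 0 in PDAC.
The Csf3r promoter is shown for its match to the core motif of PU.1, the myeloid factor whose own gene (Sfpi1) was also called. It spans the 250 bases before the start, chr4:126024409-126024658 (plus strand, GRCm38.p6, from RefSeq), with the match to GAGGAAG in capitals.
Csf3r: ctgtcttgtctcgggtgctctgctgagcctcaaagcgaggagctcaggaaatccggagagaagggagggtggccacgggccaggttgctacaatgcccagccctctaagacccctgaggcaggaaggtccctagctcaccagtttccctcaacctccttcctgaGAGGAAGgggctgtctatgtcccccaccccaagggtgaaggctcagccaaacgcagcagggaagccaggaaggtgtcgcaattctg
On either strand GAGGAAG was present in 15 of 89 windows of genes called higher in PDAC (16.9%), in 2 of 18 of those called higher in BC (11.1%) and in 816 of 7262 of all tested genes (11.2%). The Alas2 window above holds 1 match as well, apart from its GATA match.

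Further myeloid genes were called that stood in no list and are named after their values were seen. Sfpi1 itself read 185, 729 and 502 RPKM in PDAC against 17.8 and 0 in BC. The NADPH oxidase genes, which make the oxidative burst of phagocytes, included called subunits: Ncf4 read 206, 1209 and 471 against 23.9 and 0.0106, and Cyba 2303, 4486 and 2423 against 437 and 656. The chemokine genes Ccl3, Ccl4 and Ccl6 had differences of 4.57, 4.52 and 5.07 (SE 0.63, 0.61 and 0.61). The chemokine gene Ccl8 was called the other way, higher in BC, with a difference of -5.22.

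In the B cell and plasma cell list, 5 of 10 tested genes were called higher in PDAC (1.47% of all tested genes were) and 0 lower (median difference 4.71). Immunoglobulin kappa (Igkc) read 5641, 9320 and 2615 RPKM in PDAC against 48.1 and 45.1 in BC (6.76 ± 0.62, adjusted p = 0.000186, limma). Igj, the joining chain of secreted immunoglobulin, read 460, 534 and 228 against 0.998 and 0.0118. The immunoglobulin segments Iglv1 and Igkj1 were among the 15 largest differences too, and their reads can be shared with related segments. In the T cell and NK cell list, 2 of 15 tested genes were called, with 1.74% of all tested genes called. They were Cd3d and Cd3g, subunits of the T cell receptor complex. In 13 of 15 the PDAC libraries all lay above BC (13.4% of all tested genes did so). Cd3d read 26.7, 213 and 74.7 against 1.03 and 0 (5.75 ± 1.16, adjusted p = 0.0323, limma). All 19 genes of that list summed to 318, 710 and 958 RPKM in PDAC, 31.9 in BC lung 4 and 0.0190 in BC lung 6, where Cd3d, Cd3e and Cd3g were at 0.

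Genes of the organ in which a metastasis grew were counted next. Of 22 hepatocyte markers, 18 reached 1 RPKM in PDAC liver 1 and in PDAC liver 5, 2 in PDAC lung 1 and 1 in each BC library. As a share of the summed RPKM the list took 0.249%, 0.712% and 0.269% of PDAC liver 1, liver 5 and lung 1, so by this measure PDAC lung 1 was not below PDAC liver 1. In PDAC lung 1, however, 1 gene, haptoglobin (Hp), made up 2479 of the 2488 RPKM of the list. Albumin (Alb) read 30.8 and 381 RPKM in the liver metastases, 0 in PDAC lung 1 and at most 0.0127 in BC. Hp was the 1 member called of 16 tested, and it was also high in PDAC lung 1 (1181, 3505 and 2479 against 47.6 and 23.9). The transferrin gene Trf was called too, but it was not matched in this list and is given with the iron genes. Surfactant protein C (Sftpc), made by alveolar type II cells, read 34207 in PDAC lung 1, 1.94 and 1.95 in the liver metastases, and 20.6 and 0.905 in BC lung 4 and 6. None of 8 tested alveolar and airway genes and none of 15 endothelial genes was called, with 1.74% of all genes called. The endothelial list summed to 253, 21.9 and 1768 RPKM in PDAC and 42.2 and 55.3 in BC. The lung metastases of the models thus differed in these markers: PDAC lung 1 had 3.93% of its summed RPKM in the alveolar and airway list, BC lung 4 0.0127% and BC lung 6 0.0122%. How far host RNA enters the other differences was not tested.

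**Figure D3:**
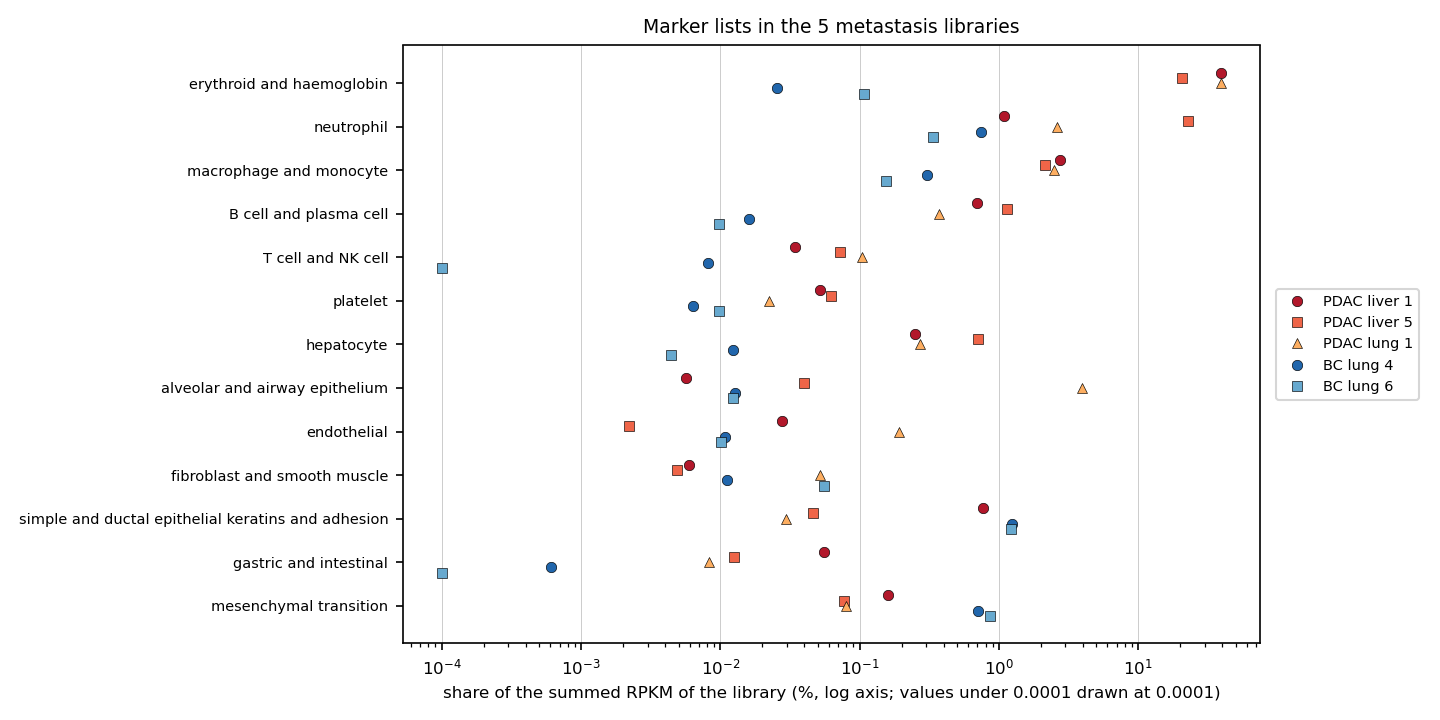
Share of the summed RPKM of each metastasis library taken by each marker list (horizontal axis, percent, log scale), 1 symbol per library. The erythroid list takes 39.4, 20.5 and 39.4% of the PDAC libraries and 0.0256 and 0.107% of the BC libraries, and the simple epithelial list 0.772, 0.0460 and 0.0294% against 1.24 and 1.22%. In RPKM the simple epithelial list sums to 7106, 456 and 272 against 4866 and 6668, with PDAC liver 1 the highest. The order differs because the library totals do, at 920154, 992067 and 924795 against 390840 and 546507.

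In total, 31 of the 159 genes called higher in PDAC were members of a host cell list, 12 of a pathway list and 2 of a tumour identity list, and the rest were in none. All lists together hold 781 found genes of 23788 used, so being in none does not set a gene apart from host cells. The myeloid genes Sfpi1 and Ncf4, for example, were in none. Of the 29 called higher in BC, 6 were in a pathway list and 0 in a host cell or tumour identity list. BC lung 6 was the lower of the BC libraries in 134 of the 159 genes and was under 0.1 RPKM in 86 of them, whereas BC lung 4 was under 0.1 in 5. That library also had 10927 genes above 0 against 18654 in BC lung 4. Leaving out BC lung 6 gave 162 genes higher and 9 lower.

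The tumour identity genes called in PDAC were Ctse and Car2. Ctse, cathepsin E, a protease of gastric epithelium that is often found in pancreatic cancer, read 189, 35.8 and 59.5 RPKM in PDAC against 1.74 and 0.0270 in BC (5.48 ± 1.11, adjusted p = 0.0323, limma). Car2, carbonic anhydrase 2, is made in ducts and also in red cells, and read 160, 232 and 306 against 1.5 and 0. Both groups were fully separated for these genes. In the gastric and intestinal list 1 of 5 tested genes was called, all 5 differences were above 0 and the median was 3.32. Trefoil factor Tff2 read 47.5, 19.6 and 0 in PDAC and was listed at 0 in BC, so the groups overlapped. Lgals4, a galectin of gut epithelium, read 176, 18.1 and 11.3 against 0.390 and 0.0452 and did not pass (adjusted p = 0.119, limma).

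Surface antigens of the Ly6 group were called as well. Ly6d, a glycolipid-anchored protein, read 238, 127 and 137 RPKM in PDAC against 0.565 and 0.0929 in BC (6.95 ± 0.89, adjusted p = 0.00224, limma). Ly6d also read 2255 and 980 in the PDAC primaries and at most 0.386 in the BC primaries, which did not enter this test. Plac8, a gene of pancreatic tumour cells and of myeloid cells, read 530, 159 and 92.2 against 19.2 and 8.83 (3.82 ± 0.84, adjusted p = 0.0443, limma). Psca, prostate stem cell antigen, read 344 and 37.9 in the liver metastases but 0.0917 in PDAC lung 1, and was not called. Of 12 tested members of this list 2 were called higher in PDAC and 0 lower.

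Genes higher in BC lung metastases included a connective tissue transcription factor and several genes that act on matrix or outside the cell. Scx, scleraxis, a transcription factor of tendon and connective tissue, read 161 and 193 RPKM in BC lung 4 and 6 against 0.357, 0.290 and 0.0689 in PDAC liver 1, liver 5 and lung 1. Its difference of -7.17 ± 1.16 was the largest among the named BC genes (adjusted p = 0.00986, limma). The secreted serine protease Htra1 read 284 and 231 against 5.77, 0.659 and 0.245 (-6.74 ± 1.11, adjusted p = 0.0115, limma). For both genes the BC libraries were close to each other and the PDAC libraries all far below. Mmp3, stromelysin 1, which cuts matrix proteins and activates other metalloproteinases, read 35.6 and 83.6 against 0.0965, 0.0612 and 0.0871 (-5.68 ± 1.21, adjusted p = 0.0375, limma). Serpine2, protease nexin 1, an inhibitor of thrombin and plasminogen activators, read 427 and 131 against 1.56, 21.7 and 0.123. The urokinase receptor gene Plaur went the other way, at 892, 2211 and 2115 in PDAC against 141 and 194 in BC (3.27 ± 0.59, adjusted p = 0.0186, limma). In the list of matrix proteases and inhibitors, 1 of 15 tested genes was called higher in PDAC and 2 higher in BC, with a median of -0.51.

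The Mmp3 promoter is shown because it holds a match to the AP-1 site, the motif of Jun and Fos dimers, for which stromelysin is a classic target. The 250 bases before the start, chr9:7445572-7445821 (plus strand, GRCm38.p6, from RefSeq), read as follows, with the match to TGANTCA in capitals.
Mmp3: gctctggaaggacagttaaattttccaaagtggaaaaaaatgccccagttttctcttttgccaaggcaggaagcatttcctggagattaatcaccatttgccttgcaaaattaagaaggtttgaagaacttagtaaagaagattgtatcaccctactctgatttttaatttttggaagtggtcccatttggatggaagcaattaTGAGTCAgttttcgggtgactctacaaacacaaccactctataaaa
The match starts 46 bases before the gene start. TGANTCA was present on either strand in 3 of 18 windows of genes called higher in BC (16.7%), 4 of 89 of those called higher in PDAC (4.49%) and 335 of 7262 of all tested genes (4.61%).

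Signalling and transcription genes were also among those higher in BC. Tslp, an epithelial cytokine that acts on dendritic cells, read 154 and 156 RPKM in BC against 0.0511, 0.995 and 7.60 in PDAC (-5.90 ± 1.20, adjusted p = 0.0323, limma). Hoxa5, a homeobox gene, read 86.7 and 85.9 against 0.0308, 0.337 and 0.0417 (-6.27 ± 1.20, adjusted p = 0.0240, limma). Cdc42ep1, an effector of the Cdc42 GTPase, read 176 and 101 against 1.16, 1.88 and 0.185. For all 3 genes both BC libraries exceeded every PDAC library, a condition for naming them, and Tslp reached its highest PDAC level in PDAC lung 1. Lgals1, galectin 1, was the most abundant gene of BC lung 6, at 32730 RPKM and 8715 in BC lung 4, against 2498, 120 and 200 in PDAC (-5.42 ± 1.06, adjusted p = 0.0272, limma). Kdelr3, a retrieval receptor of the secretory pathway, read 82.2 and 89.1 against 0, 1.71 and 0.111. The interferon-inducible Apol9a and Apol9b were both called, and their reads may be shared since they are close copies. Among called genes outside the lists and the naming rule, seen after the fact, the growth factor binding protein Igfbp4 read 1102 and 606 in BC against 118, 26.6 and 36.6, and connexin 43 (Gja1) 63.7 and 37.8 against 0.261, 0.452 and 0.0504.

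Of 10 mesenchymal genes tested 0 were called (1.74% of all tested genes were), with a median difference of -1.34. Vim, vimentin, read 985 and 1384 RPKM in BC against 467, 318 and 378 in PDAC (adjusted p = 0.191, limma). S100a4, a calcium-binding protein of motile cells, read 1359 and 2822 against 810, 202 and 107 (adjusted p = 0.0958, limma). The regulator Twist1 read 58.2 and 53.7 against 13.6, 0.102 and 0. In 5 of 10 tested genes both BC libraries exceeded all PDAC libraries, where 16.9% of all tested genes did so.

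Of 16 class I antigen presentation genes tested, 1 was called, lower in PDAC metastases. B2m, the shared light chain of class I molecules, read 1013, 1451 and 1325 RPKM in PDAC liver 1, liver 5 and lung 1 against 4960 and 8295 in BC (-2.36 ± 0.50, adjusted p = 0.0364, limma). In 12 of the 16 both BC libraries exceeded all PDAC libraries (16.9% of all tested genes did so). Among the 12 were the immunoproteasome subunit Psmb8 (86.7, 87.0 and 127 against 555 and 582, adjusted p = 0.0573, limma) and the heavy chain H2-K1 (497, 514 and 717 against 1918 and 1539, adjusted p = 0.176, limma). The list's median was -2.10, and -2.54 after rescaling without haemoglobin. The class I list summed to 0.320, 0.510 and 0.381% of the PDAC libraries and 3.17 and 2.53% of the BC libraries. In RPKM the list summed to 2947, 5057 and 3528 against 12392 and 13811, a smaller gap, because the PDAC library totals are larger. Genes general to cells, a list with Actb and Gapdh but also B2m, moved the same way as a share, at 0.667, 0.630 and 0.341% against 2.25 and 2.64%. B2m made up 4960 of the 8780 RPKM of that list in BC lung 4 and 8295 of 14443 in BC lung 6. The share of that list is therefore not separate from class I. Its median difference was -0.46, and 0.11 without PDAC lung 1. Of 9 class II genes tested 0 were called, and Cd74, the invariant chain, read 3453, 2953 and 6188 against 2975 and 2704.

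Interferon genes were mixed. Ifitm3, a restriction factor of virus entry, read 3388 and 6016 RPKM in BC against 820, 745 and 1134 in PDAC (-2.35 ± 0.52, adjusted p = 0.0438, limma). Rsad2, viperin, an antiviral enzyme, read 107, 130 and 232 in PDAC against 1.82 and 0 in BC (6.47 ± 0.92, adjusted p = 0.00451, limma). These were the 2 called genes of 20 tested, 1 in each direction. In 8 of 20 both BC libraries exceeded all PDAC libraries (16.9% of all tested genes did so). Gbp2 was among the 8 (99.3 and 59.6 against 1.012, 8.16 and 0.0622, adjusted p = 0.0873, limma), and the list's median was -1.81.

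Immediate early genes respond to growth signals and stress within minutes, and also to tissue dissociation. Of 16 tested, 3 were called higher in PDAC metastases and 0 lower. Dusp1, a phosphatase of MAP kinases, read 2339, 4263 and 5404 RPKM in PDAC against 500 and 302 in BC (3.28 ± 0.55, adjusted p = 0.0127, limma). Klf6 (370, 553 and 815 against 104 and 52.2) and the antiproliferative gene Btg2 (135, 668 and 504 against 28.1 and 26.3) were called with adjusted p of 0.0431 and 0.0350 (limma). In 12 of 16 tested members all PDAC libraries exceeded both BC libraries (13.4% of all tested genes did so). All 16 differences were above 0 and the median was 2.34, or 1.91 after rescaling without haemoglobin. Jun was an exception to the separation, at 285, 1103 and 970 against 512 and 216. Among NF-kB genes, the neutrophil chemokine Cxcl2 read 1063, 1754 and 4411 against 45.0 and 3.52 (7.13 ± 0.93, adjusted p = 0.00230, limma), and the inhibitor gene Nfkbia 3722, 1712 and 6092 against 239 and 253 (3.78 ± 0.60, adjusted p = 0.00881, limma). Of 19 tested members of that list 2 were called higher in PDAC and Csf3 higher in BC. Whether the sorting step bears on these genes was not tested.

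**Figure D4:**
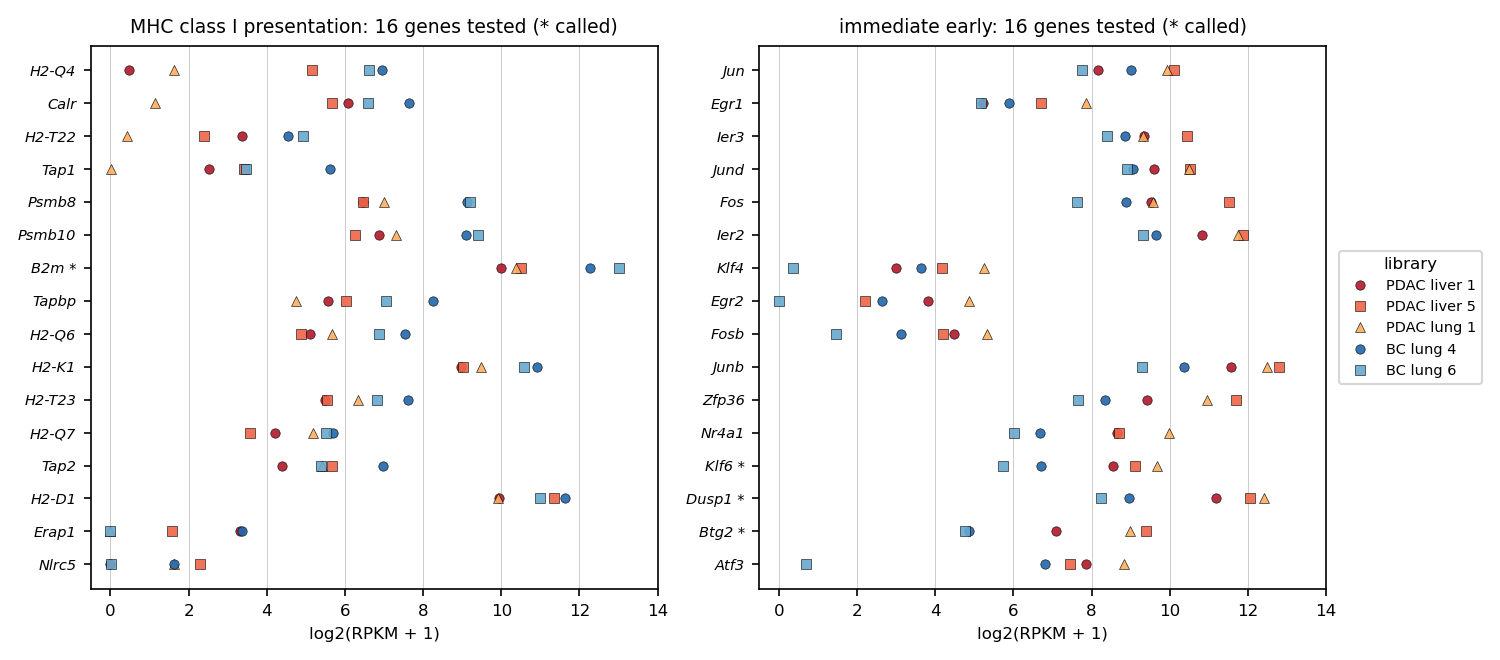
Level of each tested gene of the MHC class I list (left) and of the immediate early list (right) in the 5 metastasis libraries, as log2(RPKM + 1), sorted by difference, with called genes starred. The BC libraries lie to the right of the PDAC libraries for 12 of 16 class I genes (16.9% of all tested genes). The PDAC libraries lie to the right of the BC libraries for 12 of 16 immediate early genes (13.4% of all tested genes).

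A few other pathway members were called higher in PDAC. Pmaip1 (Noxa), a death gene under p53 control, read 38.5, 41.6 and 95.8 RPKM in PDAC against 1.62 and 0 in BC (5.07 ± 1.12, adjusted p = 0.0438, limma), the 1 call among 17 p53 list genes. Bnip3l, a mitophagy receptor that also clears mitochondria from maturing red cells, read 214, 168 and 407 against 33.8 and 9.32, the 1 call of 17 hypoxia targets. Trf, transferrin, the iron carrier of plasma made mainly by liver, read 131, 71.0 and 27.5 against 1.42 and 0, the 1 call of 11 iron genes.

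The organ was then matched by setting PDAC lung 1 against the BC lung metastases, in a fit of all 9 libraries that assumes this lone library to vary like the others. Of 12821 genes, 75 were called higher in PDAC lung 1 (0.585%) and 142 higher in BC (1.11%), 1.69% in all. Which direction had more calls depended on the processing: quantile scaling gave 251 and 153, a pseudocount of 5 gave 206 and 71, no filter on low values 218 and 62, and a pseudocount of 0.1 gave 22 and 331. Hbb-b1, Hbb-b2, Chi3l3 and Il1r2 were called here too, with adjusted p of 0.0468, 0.0379, 0.0198 and 0.0229 (limma), as were Scx, Htra1, Oaf and Hoxa5 on the BC side, with 0.0346, 0.0333, 0.0245 and 0.0369. Genes called lower in PDAC lung 1 included the cell cycle subunit gene Cks1b (0.348 RPKM against 304 and 985) and metallothionein Mt2 (0.845 against 389 and 402), which read 216 and 60.6, and 185 and 82.2, in the liver metastases. PDAC lung 1 had the fewest genes above 0, and with BC lung 4 or BC lung 6 left out limma called 0 genes in either direction (1129 and 1172, or 467 and 1131, at an unadjusted p under 0.05).

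The PDAC liver metastases against the BC lung metastases gave 50 genes higher (0.39%) and 7 lower (0.0546%) of 12821, 0.445% in all. Hbb-b1, Hbb-b2, Chi3l3 and Il1r2 were called, with adjusted p of 0.0434, 0.0355, 0.0137 and 0.0214 (limma), and so was the liver apolipoprotein gene Apoa2 (424 and 517 RPKM against 0.0243 and 0.0797, adjusted p = 0.0137). Scx, Tslp, Apol9b and Hoxa5 were called on the BC side, with adjusted p of 0.0347, 0.0260, 0.0318 and 0.0355. Alas2 was not called in either organ contrast (adjusted p = 0.0693 for liver and 0.0630 for lung, limma), where the shared spread of all 9 libraries enters its SE. Both organ contrasts use the same BC libraries. Leaving out PDAC liver 5 or either BC library gave 0 calls in limma (at least 392 genes higher at an unadjusted p under 0.05), and leaving out PDAC liver 1 gave 4 higher and 1 lower.

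Among the PDAC metastases, liver against lung gave 1 gene higher (Cyc1, 0.0078%) and 3 lower (Sftpc, Tmem100 and Cldn5, 0.0234%), 0.0312% of 12821 genes. With the PDAC number as a replicate block limma called 0 in either direction, with 1480 and 383 genes at an unadjusted p under 0.05.

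The primary tumours, which the main test did not use, gave a second look at the called genes, though some may come from the same mice. Of the 159 genes higher in PDAC metastases, 151 were also higher in PDAC than in BC primaries on average, where 40.6% of all tested genes were. All 29 genes higher in BC metastases were also higher in BC primaries, where 59.2% of all tested genes were. The median difference in primaries was 2.08 for the 159 genes and -4.75 for the 29, against medians of 5.43 and -5.87 in metastases. For the 159 genes the primary difference rested on PDAC primary 1 (median 4.16) and not on PDAC primary 5 (-0.12). For the 29 it was present in both, at -4.38 and -5.27. Alas2 read 627 RPKM in PDAC primary 1 and 0.173 in PDAC primary 5, and Mmp3 0.0118 and 0 against 324 and 43.8 in the BC primaries.

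**Figure D5:**
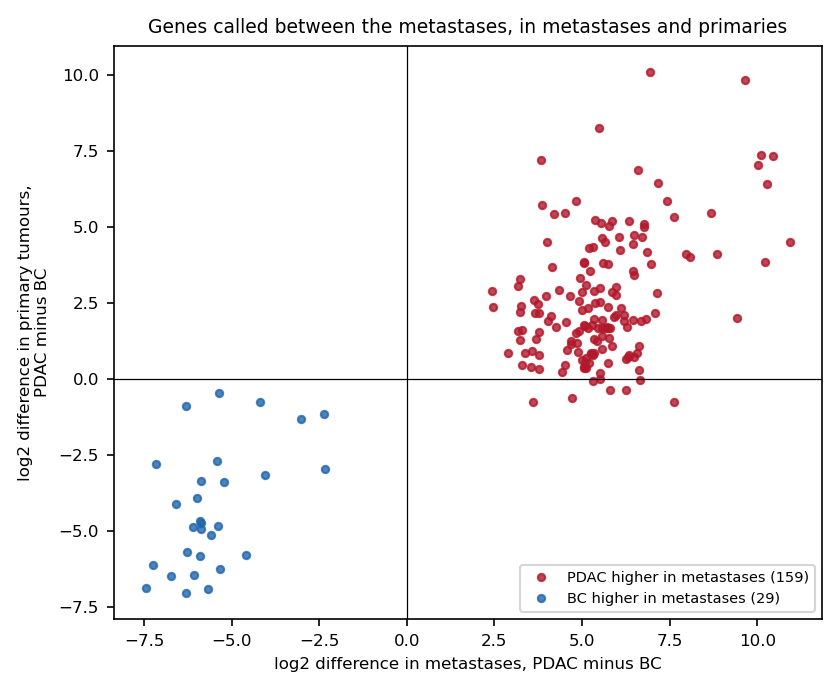
Log2 difference (PDAC minus BC) in primary tumours (vertical axis) against that in metastases (horizontal axis) for the 188 genes called between metastases, 1 point per gene. The 29 genes higher in BC metastases all lie below 0 in primaries, and 151 of the 159 higher in PDAC metastases lie above 0.

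The difference between models was then compared between sites by an interaction term. In limma, 0 of 12821 genes were called in either direction (0%), with 438 and 244 at an unadjusted p under 0.05 and a smallest adjusted p of 0.798. Apoa2 and Apoc1, liver apolipoproteins, were among the 5 genes of smallest p whose difference was larger in metastases, and Eci1, a mitochondrial enzyme of fatty acid breakdown, among the 5 of opposite sign. Leaving out PDAC primary 1 gave 54 and 23 calls, so this count depends on that library.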

How the data were processed

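RNA was measured in 9 libraries of sorted tumour cells, of which 5 metastasis libraries entered the main comparison. Per the labels' protocols, RNA came from a micro-scale column kit and libraries from the SMART-seq v4 and Nextera XT kits, which do not mark strand, so overlapping genes on opposite strands cannot be told apart. The submitters' processing notes name mm9 as the build. For the aligner, counter and annotation, a name is not given in the sources used here. A single table of 23799 genes, which its name calls CPM, was deposited by the authors. Its columns summed to between 288171 and 992077, and low values times gene length (GENCODE M21) were whole multiples of 1 step, within 0.02, for 60.6 to 73.2% of values, so the deposited values were read as RPKM. They do not resolve to whole reads without lengths, so no count test was run. In 11 genes several libraries held exactly 1 where 0 would stand, and these genes were left out.

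Groups came from the labels. A gene entered the main test when 2 or more of the 5 libraries reached 1 RPKM. The test was limma (version 3.58.1, with statmod version 1.5.0, under R version 4.3.3) with trend and robust moderation, on log2(RPKM + 1) and 3 residual degrees of freedom. Organ and interaction contrasts came from 1 fit of all 9 libraries in 5 groups with the filter over 9 libraries. All tests were two-sided, and p-values were adjusted by Benjamini-Hochberg. The test was tried on simulated data first. For the main comparison it recovered 5 of 50 simulated log2 differences of 2, 32 of 49 of 4 and 45 of 50 of 8. It also made 14 false calls among 10099 genes. Differences near 2 can therefore go uncalled.

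Named genes were, per direction, the 15 largest differences among called genes with groups that do not overlap and a mean of at least 10 RPKM in the higher group, without predicted loci, plus the most abundant and the called members of each list and the 5 leading genes of the other contrasts. The 42 lists hold 800 genes, of which 781 were found, 11 of them by Ensembl identifier. The libraries, lists and rules were chosen with earlier results of these data known. The labels call metastases and primaries matched, and PDAC numbers share an age and a genotype, so numbers were taken to pair PDAC libraries. As a check, PDAC liver 1 and PDAC primary 1 were centred on their groups and correlated over 12821 genes (-0.165). This correlation does not show that pairing. Sex-linked genes did split by number: Eif2s3y read 11.6 RPKM in PDAC primary 1 and 0 in PDAC primary 5, and Xist 0 and 5.61. In the PDAC metastases, too, Eif2s3y was above 0 in number 1 only and Xist in number 5 only. Promoter windows were matched by symbol to RefSeq, GRCm38.p6. They reach 250 bases before a gene's start and were found for 7262 of the tested genes. Some genes and alleles are not reported here. The alternatives tried are in the closing section.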

Additional observations from a re-analysis of the deposited data

Results flagged for a closer look

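The PDAC liver metastases and the PDAC lung metastasis differed by a direct test at 4 of 12821 genes, each at an adjusted p of 0.0288 in limma. Sftpc, surfactant protein C, differed by -13.50 on the log2 scale (liver minus lung), Tmem100 by -8.67 and Cldn5, a tight junction gene of endothelium, by -8.21. Tmem100 read 413 RPKM and Cldn5 302 RPKM in PDAC lung 1, and in PDAC liver 1 and 5 they read 0 and 0.0311, and 0 and 0.0389. Cyc1, cytochrome c1 of the respiratory chain, differed by 7.44, with 327 RPKM in PDAC liver 1, 117 in PDAC liver 5 and 0.131 in PDAC lung 1. The lung side is 1 library, assumed to vary like the others, so the organ and that library cannot be told apart. In limma 0 genes were called with the replicate block (1480 and 383 at an unadjusted p under 0.05), with the filter at 5 RPKM (855 and 124), without PDAC liver 1 (781 and 217) and without PDAC liver 5 (943 and 462).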

How the results depend on the processing

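Counts below are genes higher and lower. For PDAC against BC lung metastases (159 and 29), a pseudocount of 0.1 gave 49 and 1, a pseudocount of 5 gave 210 and 65, no filter on low values 4 and 0 (698 and 712 at an unadjusted p under 0.05), quantile scaling 287 and 113, rescaling without haemoglobin 49 and 16, averaging PDAC liver 1 and lung 1 204 and 92, the fit of all 9 libraries 39 and 23, and limma without trend and robust moderation 28 and 11. Of these, 156 and 29 of the main calls were kept under quantile scaling. Leaving out the 2 libraries with the fewest genes, chosen after seeing the data, gave 149 and 14. Leaving out each library in turn gave 1 to 325 and 0 to 73. Among 70 named or called list genes none changed direction under any alternative that tested it, while 69 lost their call without PDAC liver 5. For PDAC liver against BC lung (50 and 7), pseudocounts of 0.1 and 5 gave 0 and 0, and 64 and 15, no filter 0 and 0, the filter at 5 RPKM 24 and 7, quantile scaling 35 and 12, the fit of 5 libraries 110 and 16, and leaving out each library 0 to 4 and 0 to 1. For PDAC lung against BC lung (75 and 142), the pseudocounts gave 22 and 331, and 206 and 71, no filter 218 and 62, the filter at 5 RPKM 26 and 144, quantile scaling 251 and 153, and leaving out a BC library 0 and 0. For PDAC liver against PDAC lung (1 and 3), the pseudocounts gave 185 and 3, and 16 and 76, no filter 48 and 178, the filter at 5 RPKM 0 and 0, quantile scaling 16 and 75, the fit of 5 libraries 0 and 1, and leaving out a liver library 0 and 0. Without the lone PDAC lung library these contrasts had no value. The model difference between sites (0 and 0) had 0 to 54 and 0 to 23 calls with a library left out, both highest without PDAC primary 1. The median of some lists changed sign. With each library left out in turn it ranged from -1.44 (without PDAC liver 1) to 1.42 for pancreatic duct genes, -1.12 (without PDAC lung 1) to 3.85 for alveolar genes, -0.10 (without PDAC lung 1) to 0.53 for Wnt, Notch and TGF-beta genes, -0.93 to 0.11 (without PDAC lung 1) for general genes, -0.64 (without BC lung 6) to 0.61 for fatty acid genes and -0.40 (without BC lung 6) to 1.53 for sirtuins. Without the 2 libraries with the fewest genes it was -0.087 for p53 genes, -0.86 for hypoxia targets and -0.36 for sirtuins, and with the filter at 5 RPKM -0.31 for Wnt, Notch and TGF-beta genes. For all of these the cause was not tested.

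No paired analysis was possible for PDAC against BC metastases because the BC numbers 4 and 6 match no PDAC number. With the PDAC number as a replicate block, PDAC liver against PDAC lung had 0 and 0 calls and the model difference between sites 0 and 0. With the primary numbers crossed, an alternative added after seeing the data, these became 124 and 81, and 0 and 1.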

Other observations

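In the comparison of all PDAC with the BC metastases, none of 34 tested cell cycle genes was called (1.74% of all genes were), with a median difference of -0.60. Mitotic genes such as Cdc20, the activator of the anaphase-promoting complex, read 60.4 and 59.6 RPKM in PDAC liver 1 and 5 and 119 and 136 in BC, but 0 in PDAC lung 1. Ccnb2 read 125 and 94.9, against 188 and 396, and 0.152 in PDAC lung 1, while Ube2c, the ubiquitin-conjugating enzyme of mitosis, read 161, 115 and 266 in PDAC against 41.3 and 72.2. Of the 34 genes, 9 reached 1 RPKM in PDAC lung 1, 29 and 33 in the PDAC liver libraries, and 34 and 22 in BC. Cyclin D1 (Ccnd1) read 24.3, 0.444 and 2.80 against 158 and 111 (-4.69 ± 1.22, adjusted p = 0.0833, limma).

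None of 44 ribosomal protein genes, 34 oxidative phosphorylation genes, 19 glycolysis genes, 30 glutathione and NRF2 genes or 19 cholesterol genes tested was called. Of all tested genes 1.74% were, so 0 calls do not set these lists apart. Their median differences were -0.67, -0.61, -0.65, 1.06 and -0.24. Dusp6, a feedback phosphatase of the MAP kinase ERK, read 11.0, 20.8 and 4.62 RPKM in PDAC against 99.9 and 42.4 in BC. Slc7a11, the cystine transporter, read 6.57, 58.7 and 41.9 in PDAC against 0.213 and 0.373. Both separated the groups and neither passed (adjusted p = 0.260 and 0.141, limma).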
